A study of Homo sapiens with 6 samples.

Results

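NTRK2 encodes TrkB, the receptor tyrosine kinase that binds brain-derived neurotrophic factor (BDNF) and neurotrophin-4. Its transcripts were compared between PC3, a human prostate cancer cell line labelled docetaxel sensitive and called parental below, and PC3-DR, the docetaxel-resistant line derived from it and called resistant below. The members were 9 Ensembl transcript identifiers given for NTRK2, looked up by row name in the deposited mRNA table of 102731 transcripts. A row was found for 5 of the 9. ENST00000323115, ENST00000376213, ENST00000376208 and ENST00000395866 were absent from this table, and none of the 9 had a row in the lncRNA table. Any further NTRK2 transcripts could not be looked for, because no source used here pairs gene symbols with transcript identifiers. Sums given below therefore cover the rows found and may not be the whole level of the gene.

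The study sequenced total RNA of 3 PC3 and 3 PC3-DR libraries, with PC3 grown in DMEM containing fetal bovine serum. PC3-DR came from PC3 through 5 cycles of 48 h at 4 and 8 nM docetaxel, 12 cycles of 48 h at 8 and 12 nM, each series followed by 2 to 3 weeks of regrowth in fresh medium, and continuous exposure raised from 10 nM in steps of 5 nM to 50 nM, and was then kept at 40 nM for 1 month. Docetaxel is a taxane that stabilises microtubules. The series title names the long non-coding RNA LINC01963, the microRNA miR-216b-5p and TrkB protein, and the question addressed here is how the NTRK2 transcripts compare between the lines. PC3-DR is 1 derived line, and the labels do not say whether its libraries came from separate cultures, so p-values rest on a spread between libraries that may be technical. In bulk RNA, fewer cells expressing a gene and less RNA per cell cannot be told apart.

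Ligand binding pairs TrkB receptors, which then phosphorylate each other on tyrosines inside and outside the kinase domain. Adaptors such as SHC1 and FRS2, and the phospholipase PLCG1, dock on phosphorylated tyrosines and pass the signal to the RAS-MAPK, PI3K-AKT and calcium pathways. NTRK2 is also spliced into truncated receptors that keep the ligand-binding part and lack the kinase domain, which can bind ligand and pair with full-length receptors without kinase activity of their own. TrkB is best known from neurons and glia, where it supports survival and synaptic plasticity. The table used here lists identifiers only and does not say which of the 5 rows encode a kinase domain, so the rows are called by identifier throughout. The ligands, other neurotrophin receptors, adaptors and cell type markers are not described, because no table used here pairs their symbols with transcript identifiers, and the labelled cell type was for the same reason not checked against markers.

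The microRNA of the title pairs with targets mainly through its seed, bases 2 to 8 from its 5′ end, which is why its sequence is shown. The mature form, as RefSeq gives it on GRCh38.p14, is printed with the seed in capitals.
hsa-miR-216b-5p: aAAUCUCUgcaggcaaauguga
A perfect seed match in a target reads AGAGAUU. The values used here measure neither this microRNA nor TrkB protein.

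NTRK2 transcripts were detected at low levels in both lines, and no difference between the lines passed the test. The deposited values were read as FPKM, read numbers scaled to the length of the transcript and to a library total. The highest single value of the 5 rows in any library was 1.20 FPKM, and 1 of the 5, ENST00000395882, reached 1 FPKM in at least 3 of the 6 libraries, the level used to admit a transcript to the test. Transcript lengths and read numbers were recovered from the ratios of the values, taking the shortest length that gave whole reads. This puts the NTRK2 values at between 42 and 148 reads where a row was above 0 and its length could be fixed. Longer lengths also gave whole reads and would raise these numbers. The 95% intervals given below are exact Poisson intervals on the reads at the shortest length. They and the limits for values at 0 cover counting error only.

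Over the table, resistant replicate 1 was unlike the other 5 libraries. Its inferred total was 43153000, against between 14411000 and 16186000 in the other 5, while its median level over the 24937 tested transcripts was 0.676 FPKM against between 1.32 and 1.67 FPKM. The median ratio of this library to the mean of the other 5 was 0.428. The group means and differences of NTRK2 are therefore given with and without it.

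**Figure D1:**
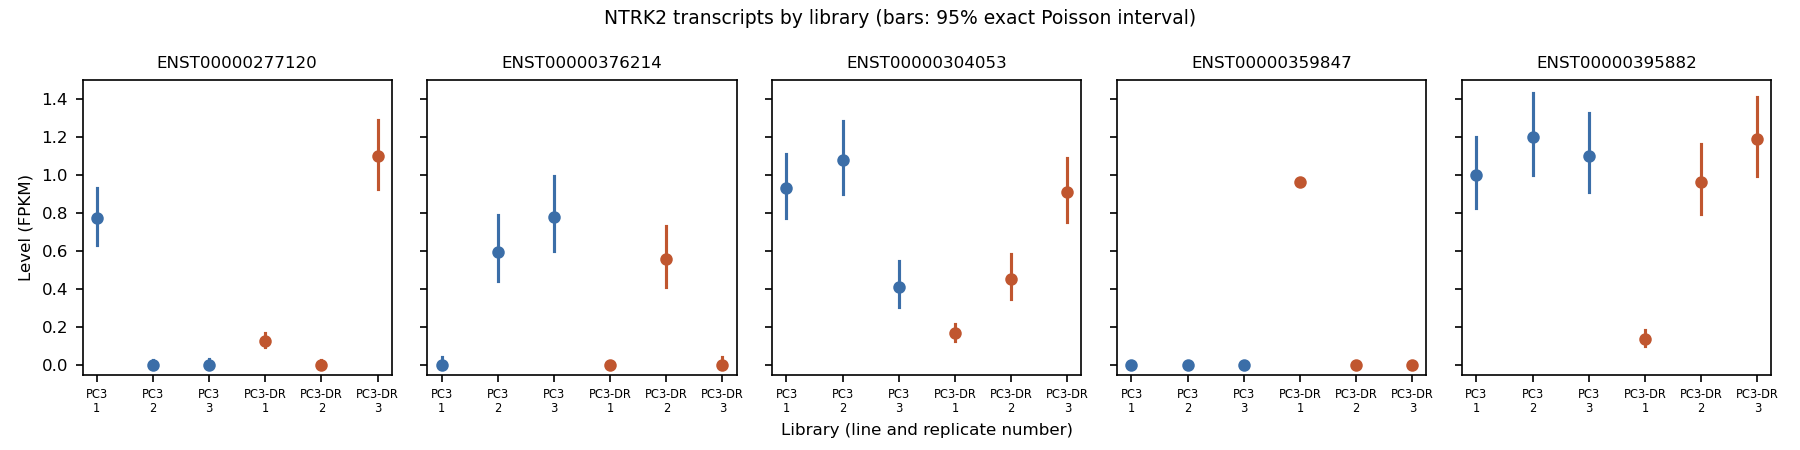
Level of each NTRK2 transcript (FPKM, vertical axis) in each library (horizontal axis, PC3 blue and PC3-DR orange), with 95% exact Poisson intervals where the read number could be fixed. ENST00000395882 lies between 0.965 and 1.20 FPKM in 5 libraries and at 0.137 FPKM in resistant replicate 1.

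ENST00000395882 was above 0 in every library and the highest of the 5 transcripts in 5 of 6 libraries. It stood at 0.999, 1.20 and 1.10 FPKM in parental replicates 1 to 3 and at 0.137, 0.965 and 1.19 FPKM in resistant replicates 1 to 3. Resistant replicate 1 was low, the other 5 libraries were close to each other, and the groups overlapped. These levels correspond to 115, 125 and 113 reads in the parental line and to 42, 110 and 132 reads in the resistant line on a length of 7111 nt. The intervals of the 5 libraries other than resistant replicate 1 all overlapped, since their highest lower bound was 1.00 FPKM and their lowest upper bound 1.16 FPKM. In resistant replicate 1 the interval ran from 0.0986 to 0.185 FPKM, below that of every other library.

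The mean of ENST00000395882 was 1.10 ± 0.10 FPKM in the parental line and 0.764 ± 0.554 FPKM in the resistant line (SD, n = 3 each). The difference on the log2(FPKM + 1) scale, which understates changes of low transcripts, was -0.31 ± 0.40 (SE), with a 95% interval from -1.19 to 0.57 (limma, adjusted p = 0.908). It did not pass the threshold (unadjusted p = 0.455 in limma), and the interval leaves room for a difference in either direction. Settings that stretch low values gave larger sizes. The difference was -0.80 with a pseudocount of 0.1 (limma, adjusted p = 0.856). It was -1.72 on log2 recovered reads per library total with limma's voom, with an interval from -3.57 to 0.14 (unadjusted p = 0.065, adjusted p = 0.505). The median difference over the 24935 transcripts of that voom fit was itself -0.49. Without resistant replicate 1 the voom difference of ENST00000395882 was -0.03, with an interval from -0.74 to 0.67 (limma, adjusted p = 0.983). Without resistant replicate 1, the resistant mean was 1.08 FPKM and the difference -0.02, with an interval from -0.74 to 0.71 (limma, adjusted p = 0.999). Of all tested transcripts 0.00401%, or 1 of 24937, passed at an adjusted p under 0.05 (limma), and the NTRK2 count of 0 of 1 tested says little against that background.

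The difference of ENST00000395882 lay well inside the spread of the table. Over all tested transcripts the median was -0.13, with quartiles at -0.42 and 0.24, and 34.3% of them had a lower value than ENST00000395882. The low level in resistant replicate 1 was likewise shared with many transcripts. The ratio of this library to the mean of the other 5 was 0.125 for ENST00000395882, and 27.6% of tested transcripts had a lower ratio.

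**Figure D2:**
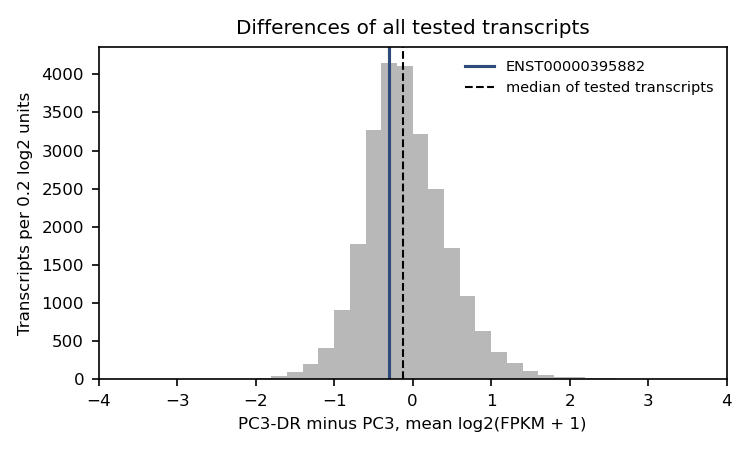
Number of tested transcripts (vertical axis) by difference PC3-DR minus PC3 in mean log2(FPKM + 1) (horizontal axis). ENST00000395882, at -0.31 (solid line), lies between the lower quartile of all tested transcripts, at -0.42, and their median, at -0.13 (dashed line).

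ENST00000304053 was the other NTRK2 transcript above 0 in every library. Within the parental line it varied more than ENST00000395882, with an SD of 0.350 FPKM against 0.101 FPKM. Within the resistant line it varied less, with an SD of 0.374 FPKM against 0.554 FPKM. Its levels were 0.931, 1.08 and 0.413 FPKM in parental replicates 1 to 3 and 0.169, 0.455 and 0.911 FPKM in resistant replicates 1 to 3. The groups overlapped, with resistant replicate 3 beside parental replicate 1 and resistant replicate 2 beside parental replicate 3. On a length of 8226 nt these are 124, 130 and 49 reads in the parental line and 60, 60 and 117 reads in the resistant line. The spread within the parental line was larger than counting error, since the interval of replicate 3, from 0.306 to 0.546 FPKM, lay below that of replicate 1, from 0.775 to 1.11 FPKM. Resistant replicates 2 and 3 were separated in the same way, with intervals from 0.347 to 0.586 FPKM and from 0.753 to 1.09 FPKM.

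The mean of ENST00000304053 was 0.808 ± 0.350 FPKM in the parental line and 0.512 ± 0.374 FPKM in the resistant line (SD, n = 3 each), and 0.683 FPKM in the resistant line without replicate 1. It did not reach the level needed for the test. With a filter of 0.1 FPKM in at least 3 libraries, its difference on the log2(FPKM + 1) scale was -0.27, with an interval from -1.17 to 0.63 (limma, adjusted p = 0.961), and without resistant replicate 1 it was -0.10, with an interval from -1.04 to 0.84 (limma, adjusted p = 0.9996). In that fit 0 of the 4 NTRK2 transcripts admitted passed (limma, adjusted p under 0.05), against 0.00931% of 64471 transcripts. None of the 4 reached an unadjusted p under 0.05 there, and the lowest was 0.350, for ENST00000376214.

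ENST00000277120 and ENST00000376214 were each above 0 in 3 libraries, and no library listed both. ENST00000277120 stood at 0.773 FPKM in parental replicate 1 and at 0.129 and 1.10 FPKM in resistant replicates 1 and 3, and was listed at 0 in parental replicates 2 and 3 and resistant replicate 2. ENST00000376214 was listed at 0 in exactly the libraries where the first was above 0. It stood at 0.597 and 0.780 FPKM in parental replicates 2 and 3 and at 0.556 FPKM in resistant replicate 2. Each of them was above 0 in libraries of both lines.

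The zeros were not at the edge of detection. ENST00000376214 had 49, 63 and 50 reads in the libraries that listed it, on a length of 5608 nt, whereas a count of 0 allows a level of up to between 0.0124 FPKM, in resistant replicate 1, and 0.0343 FPKM, in resistant replicate 3 (3 reads). ENST00000277120 had 108, 48 and 148 reads on 8633 nt, the shortest length that gives whole reads (the next is 10791 nt), and its zeros allow up to between 0.0217 and 0.0241 FPKM by the same limit. Isoforms of 1 gene share exons, and how the authors' counting divided shared reads between them is not given in the sources used here. Values at 0 in some libraries were common in the table, where 24.1% of transcripts were above 0 in all 6 libraries and 13.4% in exactly 3.

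ENST00000277120 and ENST00000376214 were also added together. Since no library listed both, the sum puts the value of one row in place of the zero of the other. It was 0.773, 0.597 and 0.780 FPKM in parental replicates 1 to 3 and 0.129, 0.556 and 1.10 FPKM in resistant replicates 1 to 3. The SD of the sum in the parental line, 0.103 FPKM, was below the 0.446 and 0.408 FPKM of the single rows. In the resistant line its SD, 0.486 FPKM, lay between their 0.600 and 0.321 FPKM. The resistant line held both the lowest and the highest library, so the parental values lay inside the resistant range. The means were 0.717 ± 0.103 FPKM and 0.594 ± 0.486 FPKM (SD, n = 3 each), and the resistant mean was 0.827 FPKM without replicate 1. Taken singly, the difference on the log2(FPKM + 1) scale was 0.14, with an interval from -0.55 to 0.83 (limma with the filter of 0.1 FPKM, adjusted p = 0.972), for ENST00000277120. For ENST00000376214 it was -0.29, with an interval from -0.93 to 0.35 (limma with the filter of 0.1 FPKM, adjusted p = 0.945). Without resistant replicate 1, ENST00000376214 had a resistant mean of 0.278 FPKM against a parental mean of 0.459 FPKM, and its difference was -0.18, with an interval from -0.97 to 0.61 (limma with the filter of 0.1 FPKM, adjusted p = 0.9996). ENST00000277120 did not reach that filter without this library, and its resistant mean was then 0.549 FPKM against a parental mean of 0.258 FPKM.

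ENST00000359847 was listed in resistant replicate 1 only. Its level there was 0.962 FPKM, higher than that of any other NTRK2 transcript in that library, and it was listed at 0 in the other 5 libraries, resistant replicates 2 and 3 included. With 1 value above 0 its length and read number could not be fixed. Such transcripts were frequent in this library, where 7971 transcripts of the table were above 0 in no other library, against between 1388 and 2243 in each of the other 5. Of the 7971, 1071 were at or above the level of ENST00000359847.

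**Figure D3:**
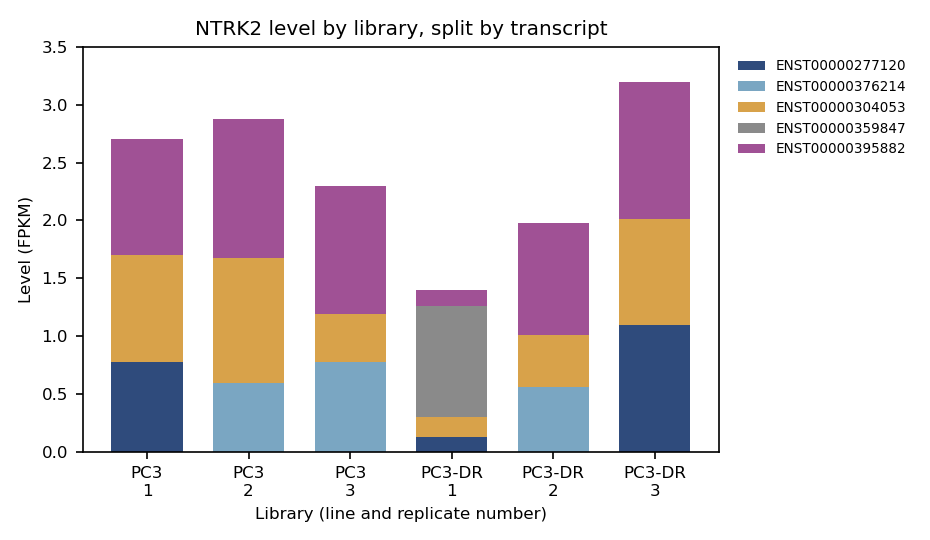
Level of the 5 NTRK2 transcripts with a row (FPKM, vertical axis) in each library (horizontal axis), stacked by transcript. Resistant replicate 1 has the lowest sum, 1.40 FPKM, of which ENST00000359847 makes up 68.9%, and resistant replicate 3 the highest, 3.20 FPKM.

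The sum over the 5 rows was 2.70, 2.88 and 2.30 FPKM in parental replicates 1 to 3 and 1.40, 1.98 and 3.20 FPKM in resistant replicates 1 to 3. Resistant replicates 1 and 2 lay below all parental libraries and resistant replicate 3 above them, so the groups overlapped. The mean sum was 2.63 ± 0.30 FPKM in the parental line and 2.19 ± 0.92 FPKM in the resistant line (SD, n = 3 each), or 83.4% of the parental mean. This difference, -0.436 FPKM, is smaller in size than the SD among the resistant libraries. With ENST00000359847 left out of the sum, the resistant mean was 1.87 ± 1.38 FPKM (SD, n = 3), or 71.2% of the parental mean. Without resistant replicate 1, the resistant mean was 2.59 FPKM, 0.985 times that of the parental line. No p is given for the sum, since the members were chosen with earlier results of these data known. The groups overlapped for all 5 rows as well. They did not overlap in 11.1% of tested transcripts and in 7.55% of all transcripts of the table, and a count of 0 of 5 says little against these shares. ENST00000359847, above 0 in 1 library, could not have separated the groups.

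A count that ignores length gave the same order of libraries except that parental replicates 1 and 2 changed places. The 4 transcripts with recovered lengths held 347, 304 and 225 reads in the parental line and 150, 220 and 397 reads in resistant replicates 1 to 3. Scaled to a total of 1000000 these are 21.4, 20.8 and 15.6 reads in the parental line and 3.48, 13.7 and 25.4 reads in the resistant line. The means were 19.3 ± 3.2 and 14.2 ± 11.0 reads per total of 1000000 (SD, n = 3 each). Without resistant replicate 1 the resistant mean was 19.6, so that the direction of the difference turned. Resistant replicates 2 and 3 again lay below and above the parental libraries.

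Rescaling the libraries to a common median of ratios removed the gap in the sum over all 5 rows. This rested largely on ENST00000359847, which supplied 1.63 of the 2.36 FPKM in resistant replicate 1 and has no fixed read number. The rescaled mean of this row was 0.543 FPKM in the resistant line and 0 in the parental line. That is more than the 0.015 FPKM by which the rescaled mean sums differ, so without this row the resistant mean sum stays below the parental one. The rescaled sum was 2.30, 2.23 and 2.13 FPKM in parental replicates 1 to 3 and 2.36, 1.73 and 2.61 FPKM in resistant replicates 1 to 3. The means were 2.22 ± 0.09 and 2.23 ± 0.45 FPKM (SD, n = 3 each), a difference far smaller than the SD. The sign of this difference rested on resistant replicate 1, without which the rescaled resistant mean was 2.17 FPKM, below the parental mean. The median difference on the log2 scale was -0.13 over the 24937 transcripts tested as deposited. After rescaling it was 0.05 over the 21949 that then reached the filter. It did not level the single rows, since ENST00000395882 was at 0.231 FPKM in resistant replicate 1 after rescaling and at between 0.844 and 1.02 FPKM in the other 5 libraries, while ENST00000359847 was at 1.63 FPKM in resistant replicate 1.

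**Figure D4:**
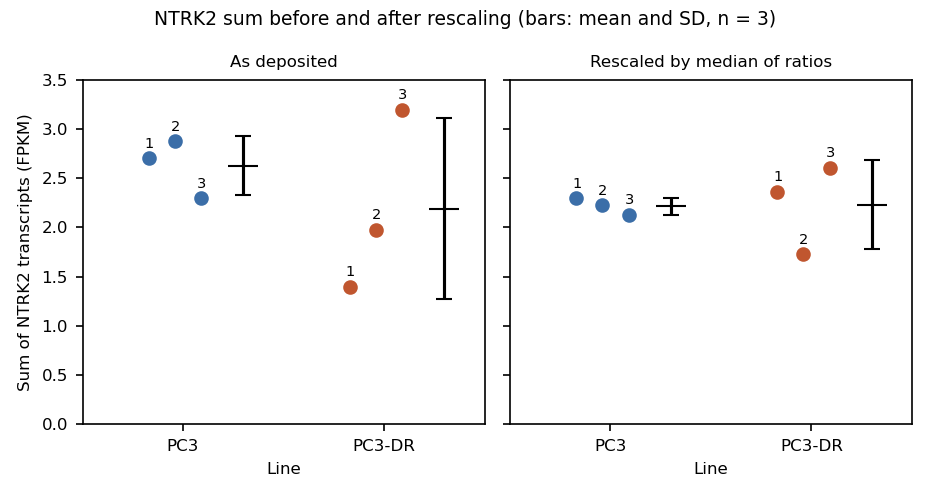
Sum of the NTRK2 transcripts (FPKM, vertical axis) by line (horizontal axis), as deposited and after rescaling, with points numbered by replicate and bars for the mean and SD (n = 3). The resistant mean is 2.19 FPKM as deposited and 2.23 FPKM rescaled, beside 2.63 and 2.22 FPKM in the parental line.

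The make-up of the sum varied between the libraries of each line. ENST00000395882 made up 37.0%, 41.7% and 48.0% of it in parental replicates 1 to 3 and 9.80%, 48.8% and 37.2% in resistant replicates 1 to 3. The low share belonged to resistant replicate 1, and the other resistant values lay just above and within the parental range. ENST00000304053 made up 34.5%, 37.5% and 18.0% in the parental line and 12.1%, 23.0% and 28.5% in resistant replicates 1 to 3. The remaining share in 5 libraries, between 20.7% and 34.3%, belonged to whichever of ENST00000277120 and ENST00000376214 was listed.

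In 5 of 6 libraries ENST00000395882 was the highest of the rows, yet the order below it was not fixed. ENST00000304053 came next in parental replicates 1 and 2, and one of ENST00000277120 and ENST00000376214 came next in parental replicate 3 and in resistant replicates 2 and 3. Within each parental library ENST00000395882 lay above ENST00000304053, at 0.999 against 0.931, 1.20 against 1.08 and 1.10 against 0.413 FPKM in replicates 1 to 3. The Poisson intervals of these rows overlapped in parental replicates 1 and 2 and were apart in parental replicate 3. Set against all transcripts above 0 in the same library, ENST00000395882 stood at or above between 56.8% and 63.9% of them when resistant replicate 1 is left aside, and at or above 28.6% there.

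The transcript whose pattern was most like the NTRK2 sum over the 6 libraries, among 24936 others, was ENST00000620945, followed by ENST00000619423. Their Pearson correlations with it on the log2(FPKM + 1) scale were 0.999 and 0.996. ENST00000620945 stood at 1.11, 1.36 and 0.710 FPKM in the parental line and at 0, 0.439 and 1.76 FPKM in resistant replicates 1 to 3. The most opposite were ENST00000233055 and ENST00000372656, with correlations of -0.976 and -0.966. These values describe 6 points, among which resistant replicate 1 had the lowest NTRK2 sum. It was the highest library for the most opposite transcripts, at 3.07 FPKM for ENST00000233055 and 1.99 FPKM for ENST00000372656. Of the 24936 transcripts, 3.89% had a correlation above 0.9, and the share with strongly negative correlations was not counted.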

How the data were processed

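The values the authors deposited were read here as FPKM, scaled by transcript length and library total, because of their own structure. Neither the labels nor the file headers give a unit. For 24935 of 24937 tested transcripts a whole-number length between 200 and 60000 nt turned every value into a whole number of reads, with a tolerance of at most 0.08 reads. Totals were inferred from the commonest ratios between libraries, and they may count reads or fragments. In 2000 simulated transcripts made with these totals the true length was returned in 99.2%, and a length was returned for 2.65% of values without this structure. The submitters' processing notes name HISAT2, StringTie and featureCounts among other tools, with no version or role, and the mouse build mm9 although the organism is human, so no coordinate is printed. The columns carry the sample titles, and 0 columns belonged to no sample.

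A transcript was tested if it reached 1 FPKM in 3 or more of the 6 libraries. The test was limma 3.58.1 (R 4.3.3) on log2(FPKM + 1), two-sided, with an intensity trend, a term for the line alone and Benjamini-Hochberg adjustment over all tested transcripts at 0.05. In simulated reads of this comparison (20411 transcripts) it recovered 81.5% of 81 changes of 4-fold and 100% of 86 of 16-fold, drawn from the better covered transcripts. It also called 5 unchanged transcripts. The simulated spread came from the parental libraries, and all libraries had the same make-up. These shares therefore do not describe data with a library like resistant replicate 1, or low transcripts such as those of NTRK2. Intervals used SciPy 1.17.1 and figures matplotlib 3.10.9. The named transcripts are the members, and the 2 with the highest and the 2 with the lowest correlation with their sum. Members, lists and tests were chosen with earlier results of these data known. Alternatives changed the pseudocount, the filter, the trend, the scaling, the use of recovered reads or the replicate block, or left out a library.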

Additional observations from a re-analysis of the deposited data

How the results depend on the processing

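The count of NTRK2 transcripts called by limma was 0 as reported and in every alternative that admitted one (5 of the rows with no filter, where 0 of 102731 transcripts passed and 3008 reached an unadjusted p under 0.05). The log2 difference of ENST00000395882 was below 0 in all 12 alternatives that tested it. Changing the filter, the trend or the replicate block alone cannot move this difference, which stayed at -0.31. In the alternatives without resistant replicate 1 it was -0.02 or -0.03. The difference ran from -1.72 with voom on recovered reads (adjusted p = 0.505 in limma) to -0.02 when resistant replicate 1 was left out, with adjusted p between 0.505 and 0.9996 (limma). Leaving out resistant replicate 1 together with voom or with the filter of 0.1 FPKM was chosen after seeing the data, and both gave 0 calls over the table (995 and 3004 at an unadjusted p under 0.05). In the other 4 (rescaling, and leaving out parental replicate 2, parental replicate 3 or resistant replicate 3) it did not reach the filter. The difference of the sum over all 5 rows, ENST00000359847 included, was -0.436 FPKM as reported and 0.015 after rescaling. Leaving out single libraries moved it to between -0.940 (resistant replicate 3 left out) and -0.039 (resistant replicate 1 left out). The difference in the share of ENST00000395882, resistant minus parental, was -10.3 percentage points. It was -18.8 with resistant replicate 2 left out, 0.761 with resistant replicate 1 left out, and -4.41 as a share of recovered reads.

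The 1 call over the whole mRNA table became 6 with a filter of 0.1 FPKM and 0 with a pseudocount of 0.1 or 5, no filter, no trend, rescaling or voom, and between 0 and 1 without single libraries. The cause was not tested. In these fits between 790 and 3757 transcripts reached an unadjusted p under 0.05. With a replicate block the count was 0 (1707 at an unadjusted p under 0.05), and the difference of ENST00000395882 was -0.31 (adjusted p = 0.897 in limma). Same-numbered libraries deviated together at correlations of 0.192, -0.004 and 0.093, so the numbers were not taken to pair them. At the depth of these libraries the NTRK2 rows with recovered reads rest on at most 148 reads per library, at the shortest lengths that gave whole reads.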
